A study of Mus musculus with 4 samples.

Results

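Chemokines are small secreted proteins that attract leukocytes, and 8 genes of this system were followed through single cells of the mouse bone marrow: the ligands Ccl3, Ccl4, Ccl5, Ccl6 and Ccl9 and the receptors Ccr1, Ccr2 and Cxcr4. They were found by symbol and are 8 of the 27998 genes counted. They were selected on their measured levels by cell type and genotype in these same libraries, so their levels and fold changes are a description and carry no test.

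The study counted RNA in single Lin-Sca1+cKit+ (LSK) cells, the marrow fraction that holds hematopoietic stem cells and multipotent progenitors, to ask how loss of the nucleoporin Nup358 (gene Ranbp2) changes progenitors. There were 2 control libraries and 2 Nup358 knockout libraries, each from a pool of 3 bone marrows. In all, 6 mice of 9 to 12 weeks stood behind each genotype. Control mice were Nup358 fl/fl, which the labels call wild-type. Knockout mice were Nup358 fl/fl and also carried R26-CreERT2, a Cre that is expressed in every tissue and is switched on by tamoxifen, which was given on 3 consecutive days and removed exon 2 throughout the animal. The study describes control and knockout mice alike as given tamoxifen and examined marrow within days of it. The day of harvest is not stated for the sequenced libraries in the sources used here. The Ranbp2 level checks nothing, because 3′ reads lie outside the deleted exon. With pooled mice, 2 libraries a genotype measure the spread between pools.

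The libraries held 60330267 and 25111828 UMIs (control 1 and 2) and 35986936 and 54850344 UMIs (knockout 1 and 2). A UMI is a molecular tag that counts 1 captured RNA molecule. After filters, 24973 of 25242 barcodes were kept. Of all barcodes, 10936 (43.3%) also occurred in another library with at least 3 times as many UMIs there. Such copied barcodes made up 14.8%, 81.8%, 65.3% and 18.8% of the barcodes and 2.01%, 24.6%, 8.58% and 1.61% of the UMIs of control 1, control 2, knockout 1 and knockout 2. Values are therefore given with all kept barcodes and, where they touch a result, with copied barcodes left out. Values of 4 libraries are given in the order control 1, control 2, knockout 1, knockout 2. Levels are UMIs summed per library, or per library and cell type, per 1000000 UMIs of the same cells (CPM). They are not per gene length, so a level is compared only within a gene. Such a sum does not tell fewer cells of a type from less RNA per cell.

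Ligands of the CC class act on G protein-coupled receptors. Ccl3 (MIP-1α), Ccl4 (MIP-1β) and Ccl5 (RANTES) are inflammatory chemokines, and Ccl3 and Ccl5 bind Ccr1. Ccl6 and Ccl9 are mouse chemokines of myeloid cells that act on Ccr1. Ccr2, the receptor of Ccl2, lets monocytes leave the marrow, and Cxcr4, the receptor of Cxcl12, holds stem cells and immature B cells in it. Ccl3 is also known as an inhibitor of stem cell proliferation.

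In GRCm38 the 5 ligands lie together on chromosome 11. Ccl3 is at chr11:83647844-83649355 on the minus strand and Ccl4 at chr11:83662584-83664683 on the plus strand, and their start sites are 13.2 kb apart. Ccl9 (chr11:83572919-83578636, minus) and Ccl6 (chr11:83587882-83593087, minus) have start sites 14.5 kb apart. Ccl5 is at chr11:83525778-83530518 on the minus strand, and its start site is 132 kb from that of Ccl4. Ccr1 (chr9:123962124-123968692, minus) and Ccr2 (chr9:124101950-124113557, plus) have start sites 133 kb apart. Cxcr4 is at chr1:128588199-128592293 on the minus strand.

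The RefSeq promoter table (GRCm38.p6) held 6 of the 8 genes. The 250 bases before the start of Ccl3 and of Ccl9 are shown 5′ to 3′ on the strand of the gene, because these neighbouring ligands differed in their levels by cell type and in their difference between genotypes. The Ccl3 window is chr11:83649379-83649628 and the Ccl9 window is chr11:83578637-83578886, both on the minus strand. Capitals mark matches to the motif letters searched.
Ccl3: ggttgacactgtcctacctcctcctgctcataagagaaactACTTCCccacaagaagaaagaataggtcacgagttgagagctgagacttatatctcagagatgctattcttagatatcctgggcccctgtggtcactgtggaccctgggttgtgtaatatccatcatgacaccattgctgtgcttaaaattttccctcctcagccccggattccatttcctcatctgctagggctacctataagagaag
Ccl9: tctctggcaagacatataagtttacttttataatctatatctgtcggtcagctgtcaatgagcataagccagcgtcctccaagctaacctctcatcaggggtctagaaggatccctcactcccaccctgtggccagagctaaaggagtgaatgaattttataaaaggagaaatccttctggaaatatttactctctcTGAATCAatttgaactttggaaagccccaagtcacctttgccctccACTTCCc
Ccl3 held a match to the ETS family letters GGAAGT, read on the other strand as ACTTCC, at position -209 from the start. Ccl9 held the same letters at position -7 and a match to the AP-1 letters TGANTCA at position -53. AP-1 factors are the Fos and Jun proteins, and ETS factors include regulators of blood cells. Both strands were searched, and no match overlapped another. Among the 6 promoters, 3 (Ccl3, Ccl6 and Ccl9) held the ETS letters, 1 held the AP-1 letters, and none held the CRE letters TGACGTCA or the C/EBP letters TTGCNNAA. Of all 32851 promoters of this length, 19.7% held the ETS letters, 6.75% the AP-1 letters, 1.55% the CRE letters and 9.56% the C/EBP letters.

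Cells were placed in cell types by marker gates. A cell entered the gate with the highest mean marker z-score, if that was at least 1 and at least 2 markers were detected. Of the kept cells, 9.33% passed the neutrophil gate (Elane, Prtn3 and others), 3.65% the monocyte-dendritic, 3.64% the lymphoid-primed (Dntt, Flt3), 3.33% the stem-like (Procr, Hlf, Mecom), 2.46% the B-lineage, 2.40% the megakaryocyte, 1.88% the erythroid, 0.593% the plasmacytoid dendritic and 0.456% the basophil-mast gate. The other 72.3% stayed ungated. Every marker listed was detected, and each gate had at least 3 of its own markers among its 10 leading genes. The gating used these markers, so this is no check of the gate names. More than 1 gate was passed by 403 of 912 monocyte-dendritic and 101 of 148 plasmacytoid dendritic cells. The neutrophil gate was also led by genes of later neutrophils (Ngp, Camp, S100a8). All gates but the plasmacytoid dendritic one, and the ungated cells, held at least 20 cells in every library and were compared between genotypes. With copied barcodes left out, the neutrophil gate held 1219, 88, 20 and 14 cells and the basophil-mast gate 22, 3, 13 and 34. The B-lineage gate then held 8, 7, 105 and 302 cells. These gates were not fitted in that setting.

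Over all LSK cells, Ccl3 and Ccl4 were lower in both knockout libraries than in both control libraries. Ccl3 stood at 118 and 155 CPM in the controls and at 18.0 and 16.8 CPM in the knockouts, from 7094, 3871, 643 and 921 UMIs. The groups did not overlap, and the fitted log2 fold change was -3.00 ± 0.169 (SE). Ccl4 stood at 99.7 and 153 CPM in the controls and at 27.5 and 28.8 CPM in the knockouts, a log2 fold change of -2.20 ± 0.215. With copied barcodes left out, Ccl3 stood at 119, 197, 11.7 and 15.97 CPM and Ccl4 at 101, 193, 22.5 and 28.3 CPM, and the fitted differences were -3.55 ± 0.305 and -2.58 ± 0.329. Of the 8 genes, 2 were past the threshold of edgeR's quasi-likelihood test (adjusted p of 0.05), both lower, where 3% (415) of the 13844 genes tested passed, 289 lower and 126 higher. All 8 had passed the filter on low counts. With copied barcodes left out, the count was again 2, where 3.44% of 13779 genes passed. The choice of the 8 genes used this contrast, so nothing is read from the count.

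**Figure D1:**
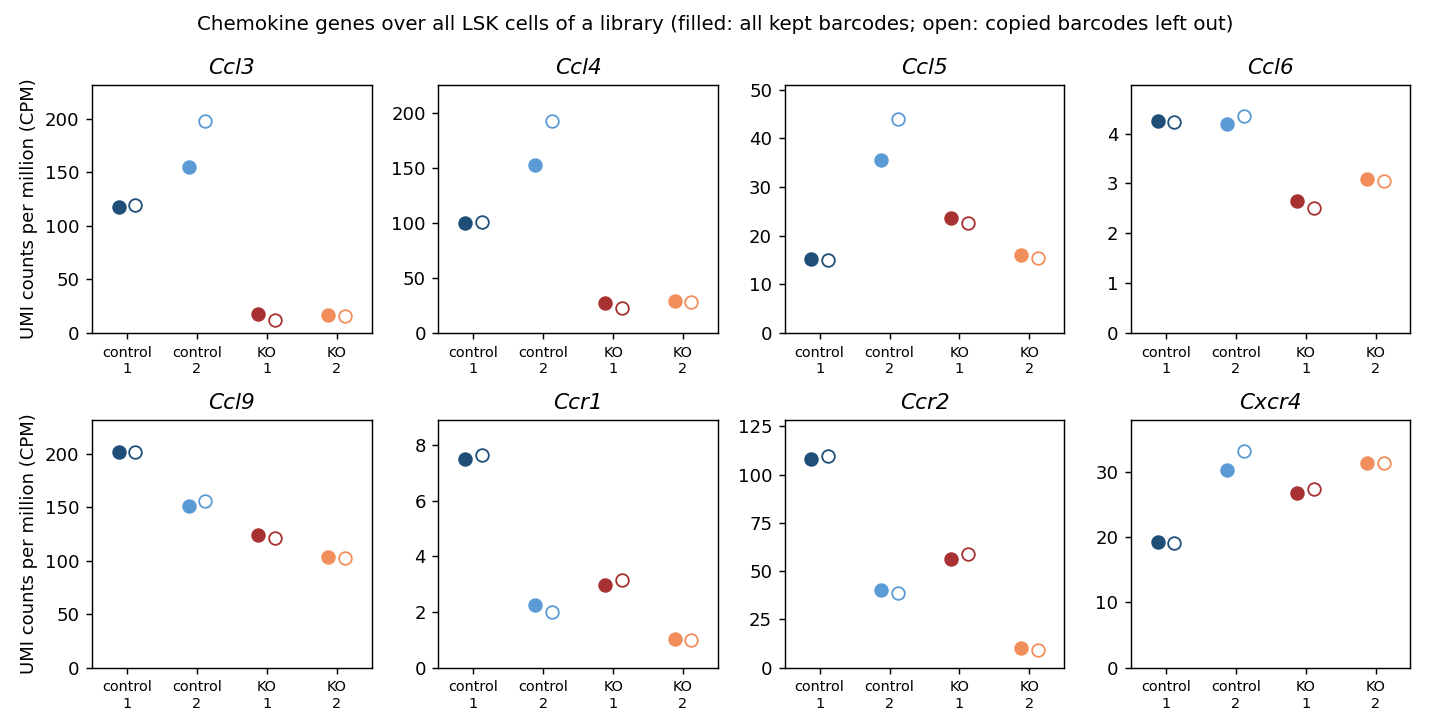
Each panel shows 1 gene, with the library on the horizontal axis and the level in CPM over all LSK cells on the vertical axis. Filled points hold all kept barcodes and open points leave out copied barcodes. For Ccl3 and Ccl4 both knockout points lie far below both control points, whereas Ccr2 is high in control 1 (108 CPM) and lowest in knockout 2 (10.1 CPM).

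Ccl3 and Ccl4 were found in many control cells and in few knockout cells. Cells were thinned to 2000 UMIs each, with copied barcodes left out, so that depth was equal. Ccl3 then had a UMI in 17.9% and 20.7% of control cells (1353 of 7576 and 247 of 1191) and in 1.73% and 2.24% of knockout cells (26 of 1503 and 72 of 3210). In erythroid cells, which should lack this chemokine, the share was 1.70% and 3.03% in the controls (3 of 176 and 1 of 33 cells). It was 0 of 31 and 0 of 71 cells in the knockouts, which allow up to 9.68% and 4.23%. The control shares over all cells lay above what these counts allow as background. The knockout shares lay below 9.68% and 4.23%, but these bounds are too wide to tell whether they exceed the background. Erythroid Ccl3 was itself lower in the knockouts, so it is not a fixed background. Without thinning, over all kept cells, 30.0%, 9.64%, 7.26% and 8.72% of cells had a Ccl3 UMI at median depths of 5333, 1036, 1090 and 12026 UMIs, against 8.67%, 0.855%, 0% and 1.19% of erythroid cells at 7205, 1552, 2125 and 18717.5 UMIs. For Ccl4 the thinned shares over all cells were 15.2%, 23.8%, 4.52% and 4.64%. In erythroid cells they were 2.84% and 3.03% in the controls (5 of 176 and 1 of 33 cells), and the same 31 and 71 knockout cells held no Ccl4 UMI. The knockout 1 share lay within the 9.68% that 31 cells allow, too wide a bound to tell whether it exceeds the background. The knockout 2 share, at 4.64%, lay just above the 4.23% allowed, but its own exact interval ran from 3.94% to 5.43%. For 0 of 71 cells the exact interval reached up to 5.06%, which is above 4.64%. These counts therefore cannot tell whether the knockout 2 share exceeds the background. Without thinning, 26.7%, 11.7%, 10.4% and 15.5% of all kept cells and 11.7%, 4.27%, 0% and 7.14% of erythroid cells had a Ccl4 UMI.

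Over all cells, Ccl4 was found more often in cells with Ccl3 than in cells without it, although most Ccl3 cells had no Ccl4 UMI. Among thinned cells with a Ccl3 UMI, 28.9%, 42.9%, 15.4% and 22.2% had a Ccl4 UMI as well, against 12.2%, 18.9%, 4.33% and 4.24% of cells without Ccl3. In all 4 libraries the share was higher among Ccl3 cells, on 391 of 1353, 106 of 247, 4 of 26 and 16 of 72 cells. These shares pool gates that differ in both genes. Within gates the excess was not seen everywhere, as in monocyte-dendritic cells of control 2 (20% against 21.4%). In the knockouts a larger part of the remaining Ccl3 and Ccl4 UMIs lay in few cells. The 1% of cells with the most Ccl3 held 11.5% and 11.6% of the Ccl3 UMIs in the controls and 41.7% and 46.0% in the knockouts. For Ccl4 these shares were 13.6%, 11.4%, 29.1% and 25.7%. Such a share rises by itself as a gene gets scarcer. Ccl3 had 7035, 3718, 384 and 860 UMIs here, so the shares are not compared at an equal number of UMIs. Cells with at least 5 Ccl3 UMIs numbered 399 of 7830 and 268 of 1200 in the controls and 17 of 1589 and 37 of 3422 in the knockouts. In the basophil-mast gate were 1 of the 17 and 9 of the 37, so the Ccl3 of that gate in knockout 1 rests on few cells.

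Among the 9 sets of cells with at least 20 cells in every library, Ccl3 had its highest mean in lymphoid-primed progenitors, which stood at 267, 378, 35.8 and 38.6 CPM. In 4 of 4 libraries that was above the rest of the library, by 1.16 ± 0.241 (SD, n = 4) on the log2(CPM + 5) scale. In both knockouts basophil-mast cells stood higher (116 and 331 CPM), and they also had the higher mean without control 1 or without control 2. The order by mean level was lymphoid-primed, basophil-mast, monocyte-dendritic, ungated, neutrophil, stem-like, megakaryocyte, erythroid and B-lineage. Of these neighbours, stem-like stood above megakaryocyte, and megakaryocyte above erythroid, in every library, and the other neighbours crossed in at least 1 library. Stem-like, megakaryocyte and erythroid cells held only 8, 2 and 0 Ccl3 UMIs in knockout 1 and 5, 3 and 1 in knockout 2. With 4 libraries an exact sign-flip test over libraries cannot reach a two-sided p of 0.05, so these orders are not tested. Among the same 9 sets Ccl4 also had its highest mean in lymphoid-primed cells (233, 330, 35.1 and 54.8 CPM; 0.92 ± 0.434 above the other cells). It was followed by basophil-mast, ungated, monocyte-dendritic and stem-like cells. Of the neighbours in that order, only neutrophil cells stood above the next gate, erythroid, in every library. These 2 gates held 21 and 0 Ccl4 UMIs in knockout 1 and 7 and 7 in knockout 2. B-lineage cells were last by mean level for both genes, at no more than 12.1 CPM of Ccl3 in any library.

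The plasmacytoid dendritic gate was too small to enter these orders, with 8, 14, 41 and 85 cells. Its Ccl4 stood at 169, 89.0, 111 and 179 CPM on 6, 7, 46 and 114 UMIs, so that in both knockouts it was above the lymphoid-primed cells. In thinned cells of this gate, 27.3% (9 of 33) and 26.6% (17 of 64) of knockout cells had a Ccl4 UMI. Its Ccl3 stood at 113, 890, 24.2 and 53.4 CPM on 4, 70, 10 and 34 UMIs, with control 2 far above the rest.

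**Figure D2:**
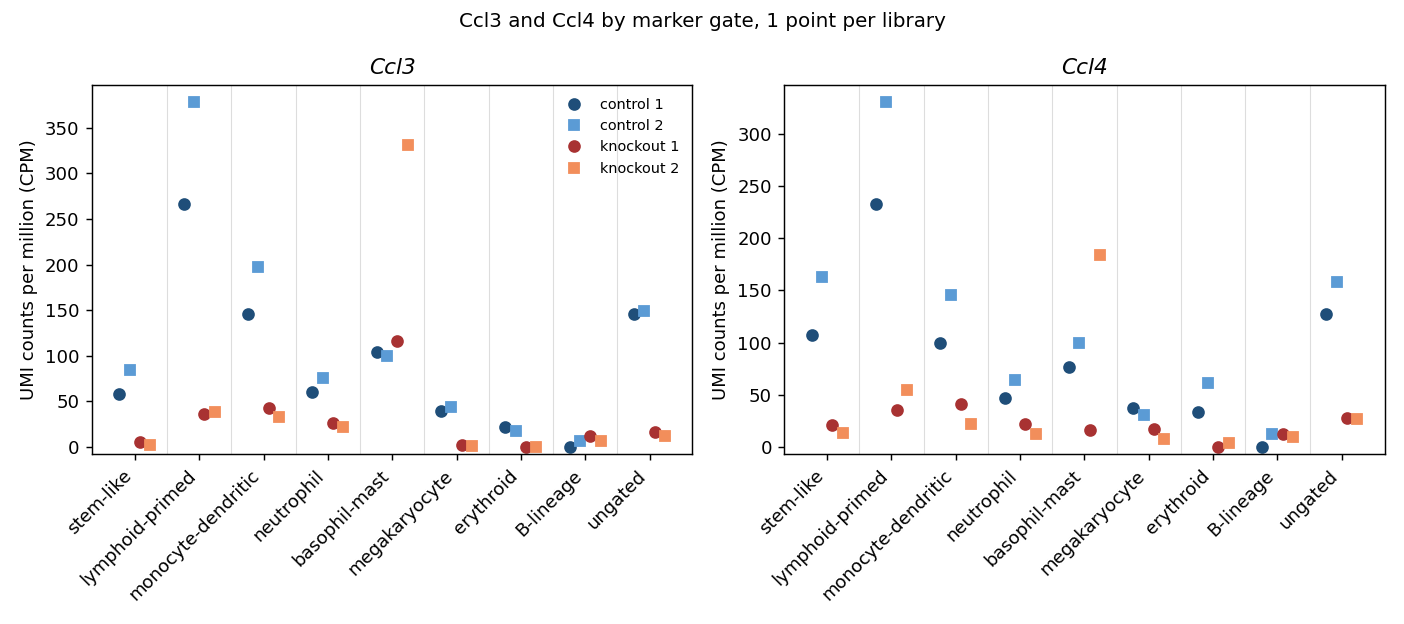
Level in CPM of Ccl3 and Ccl4, with the gate on the horizontal axis and 1 point per library (blue, control; red and orange, knockout). Knockout points lie below control points in 7 of the 9 sets of cells for Ccl3, erythroid cells included, while in basophil-mast cells knockout 2 stands at 331 CPM of Ccl3.

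Both Ccl3 and Ccl4 were lower in both knockouts than in both controls in 6 of the 9 sets of cells compared, and also in erythroid cells, which serve above as the background. In ungated cells 30.6% of all genes tested lay this way, and in the gates from 17.8% (monocyte-dendritic) to 24.8% (lymphoid-primed). Stem-like cells stood at 58.5 and 84.7 CPM of Ccl3 in the controls and at 5.76 and 2.26 CPM in the knockouts, a log2 fold change of -4.33 ± 0.384. Their Ccl4 stood at 107, 163, 21.6 and 13.1 CPM (-3.09 ± 0.284). In lymphoid-primed cells the fitted difference was -3.12 ± 0.224 for Ccl3 and -2.61 ± 0.244 for Ccl4. Ungated cells gave -3.32 ± 0.150 and -2.37 ± 0.147. Neither gene had overlapping groups in these 3 sets of cells. After copied barcodes were left out, the Ccl3 differences were -4.88 ± 0.386 in stem-like, -3.36 ± 0.257 in lymphoid-primed and -4.04 ± 0.243 in ungated cells.

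Cells of the megakaryocyte and erythroid gates carried little of either ligand in the knockouts. Megakaryocyte cells held 100 Ccl3 UMIs in the controls and 5 in the knockouts, at 39.1, 43.7, 2.64 and 1.40 CPM, a ratio of control to knockout of 23.3 (exact 95% interval from 9.66 to 73.3, for counting error only). Erythroid cells held 50 and 1 UMIs of Ccl3, a ratio of 54.8 (9.40 to 2208), and 98 and 7 UMIs of Ccl4, a ratio of 15.4 (7.18 to 39.2). The erythroid differences of both genes were no longer past the threshold without knockout 1 or with DESeq2. Megakaryocyte Ccl4 stood at 37.1, 30.9, 17.1 and 7.46 CPM (-1.74 ± 0.358), and it was not past the threshold without control 1, with the replicate number as a block or without knockout 2, where it was -1.01.

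With all kept barcodes, the fitted differences of Ccl3 in the neutrophil and monocyte-dendritic gates lay nearer to 0 than in the gates above. The difference between gates was not tested. Monocyte-dendritic cells stood at 146, 198, 43.2 and 33.1 CPM of Ccl3 (-2.19 ± 0.305) and at 99.7, 146, 41.4 and 22.1 CPM of Ccl4 (-1.90 ± 0.343, and -1.66 and not past the threshold without knockout 2). Neutrophil cells stood at 60.1, 75.2, 26.6 and 21.9 CPM of Ccl3 (-1.44 ± 0.270) and at 47.4, 64.3, 22.3 and 12.8 CPM of Ccl4 (-1.57 ± 0.322). The groups did not overlap in either gate. The knockout neutrophil values rest on 25 and 12 UMIs of Ccl3. Most of these knockout cells were copied barcodes: of 250 and 135 cells, 20 and 14 were not copied. The neutrophil difference was therefore not fitted with copied barcodes left out. Against the other cells of the library, neutrophil Ccl3 then stood at -1.16, -1.37, 0.36 and -0.37 on the log2(CPM + 5) scale. With all kept barcodes these values were -1.14, -1.10, 0.47 and 0.30.

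In basophil-mast cells Ccl3 was not lower in the knockouts. It stood at 104 and 99.3 CPM in the controls and at 116 and 331 CPM in the knockouts (1.20 ± 0.391). Knockout 1 lay just above the controls and knockout 2 far above, on 19, 9, 43 and 196 UMIs from 32, 21, 23 and 38 cells. Of all genes tested in this gate, 17.8% were higher in both knockouts than in both controls. Ccl4 of basophil-mast cells stood at 77.0, 99.3, 16.2 and 184 CPM, so that the 2 knockout libraries lay on either side of the controls. With copied barcodes left out, Ccl3 stood at 104, 89.3, 114 and 334 CPM, where control 2 had 3 cells. B-lineage cells also had more Ccl3 in both knockouts, at 0, 6.50, 12.1 and 7.01 CPM, on 0, 1, 8 and 17 UMIs. With copied barcodes left out, the B-lineage gate held 8 and 7 control cells, with no Ccl3 UMI.

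**Figure D3:**
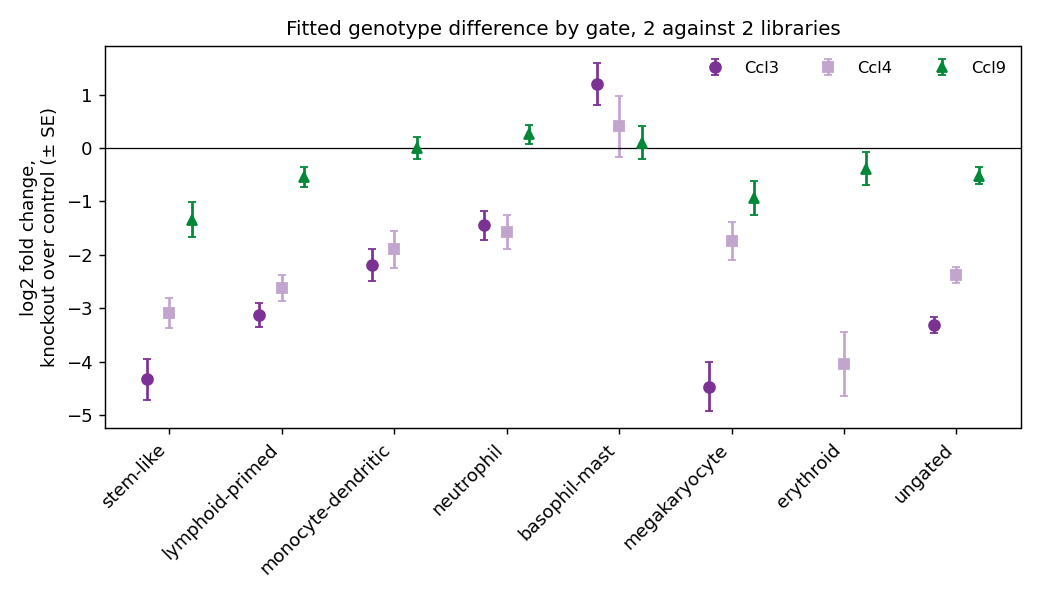
Fitted log2 fold change, knockout over control, with its SE as the bar, for Ccl3 (circles), Ccl4 (squares) and Ccl9 (triangles), by gate on the horizontal axis. Ccl3 of erythroid cells is left out, since the knockouts held 1 UMI. The Ccl3 points run from -4.47 in megakaryocyte cells to 1.20 in basophil-mast cells, and Ccl9 stays closer to 0.

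Counted over the gates, the 8 genes gave 13 gene and gate pairs past the threshold of edgeR's test, all lower in the knockouts: Ccl3 and Ccl4 in 6 gates each, and Ccl9 in stem-like cells. The count was 3 of 5 genes tested in stem-like cells, where 9.24% of all genes tested passed. It was 2 of 8 in ungated cells (7.35% of all genes), 2 of 7 in monocyte-dendritic cells (1.87%), 2 of 6 in lymphoid-primed cells (1.56%), 2 of 5 in megakaryocyte cells (1.08%) and 2 of 4 in erythroid cells (0.674%). None of 5 passed in basophil-mast cells (0.378%), none of 7 in neutrophil cells (0.0552%) and none of 1 in B-lineage cells (0%, with 173 of 5573 genes at an unadjusted p under 0.05). The genes that reached these tests had passed edgeR's filter on low counts. The others of the 8 did not, and the choice of the genes used these contrasts.

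Ccl9 was lower in the knockouts over all cells but not in the myeloid gates. Over all LSK cells it stood at 201 and 151 CPM in the controls and at 124 and 103 CPM in the knockouts (-0.66 ± 0.162), without overlap. That difference was not past the threshold (edgeR, adjusted p = 0.0746). How many genes at large separated this way over all LSK cells was not counted. Ccl9 was highest in monocyte-dendritic cells, which stood above the other cells of their library in 4 of 4 libraries by 0.90 ± 0.366 (SD). They stood above neutrophil cells in every library. Monocyte-dendritic cells stood at 265, 245, 299 and 228 CPM, and the knockouts lay on either side of the controls (-0.00 ± 0.210). Neutrophil cells stood at 205, 204, 268 and 219 CPM (0.26 ± 0.171), both knockouts above both controls. In the neutrophil gate 18.0% of all genes tested lay this way. Stem-like cells stood at 68.3, 27.4, 20.9 and 18.5 CPM (-1.34 ± 0.330), with control 1 apart from the rest. Without control 1 the difference was -0.60 and not past the threshold, which it also missed with DESeq2 and without knockout 2 (-1.23). Lymphoid-primed cells stood at 262, 176, 147 and 150 CPM (-0.54 ± 0.180). Ungated cells held 53.1%, 57.4%, 82.0% and 81.7% of all Ccl9 UMIs, and in these cells too both knockouts lay below both controls. A smaller share of knockout cells passed the 2 gates with the highest Ccl9 level. The neutrophil gate held 13.8%, 9.92%, 5.26% and 3.19% of kept cells (1270, 674, 250 and 135 cells). The monocyte-dendritic gate held 6.87%, 2.37%, 1.54% and 1.09% (632, 161, 73 and 46 cells). With copied barcodes left out, the gates held 15.6%, 7.33%, 1.26% and 0.409%, and 7.93%, 6.33%, 1.57% and 0.643%. Their part in the lower level over all cells was not tested.

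Ccl6 was scarce, at 4.25, 4.19, 2.65 and 3.09 CPM over all cells (-0.58 ± 0.192), and the groups did not overlap. That difference was not past the threshold (edgeR, adjusted p = 0.139). In neutrophil cells Ccl6 stood at 6.86, 8.80, 7.44 and 7.29 CPM, on 108, 29, 7 and 4 UMIs, and did not separate the genotypes. The knockout values there rest on few UMIs. Of the 250 and 135 knockout cells of that gate, only 20 and 14 were not copied barcodes. In monocyte-dendritic cells Ccl6 stood at 6.72 and 10.1 CPM in the controls and at 24.2 and 33.1 CPM in the knockouts (1.74 ± 0.458), on 45, 20, 14 and 9 UMIs. The direction was thus opposite to that over all cells. Of all genes tested in this gate, 23.4% were higher in both knockouts than in both controls. With copied barcodes left out, Ccl6 stood there at 6.44, 10.00, 26.2 and 38.2 CPM (1.93 ± 0.480), which was then past the threshold. The gate then held 621, 76, 25 and 22 cells. In knockout 1, 1 cell of the gate had at least 5 Ccl6 UMIs, so these knockout values rest on few cells. Basophil-mast cells of knockout 2 stood at 111 CPM on 66 UMIs, while the other 3 libraries held 0, 1 and 0 Ccl6 UMIs in that gate.

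Ccl5 came from very few cells. Over all LSK cells it stood at 15.2, 35.5, 23.6 and 16.1 CPM, and the genotypes overlapped (-0.38 ± 0.387). The 1% of cells with the most Ccl5 held 81.7%, 72.1%, 73.6% and 93.1% of its UMIs, and single cells held up to 105. With copied barcodes left out, 39, 29, 27 and 29 cells had at least 5 UMIs of Ccl5 and held 69.5%, 88.6%, 86.1% and 90.7% of the total. Of these cells, 27, 19, 20 and 25 were ungated. The ungated cells stood above the rest of their library in 4 of 4 libraries, by 0.72 ± 0.454 (SD). Values in small gates swung with single libraries, as in lymphoid-primed cells at 17.7, 13.5, 49.8 and 2.41 CPM. Ccl5 is a product of T and NK cells elsewhere in the body. Of 7 markers of these cells, 6 were found, and Cd3e lay between 0.0332 and 0.335 CPM in the 4 libraries. Their sum of 281, 217, 214 and 239 CPM was nearly all Nkg7 (280, 210, 208 and 235 CPM). At least 1 of these markers had a UMI in 29 of 39, 23 of 29, 24 of 27 and 26 of 29 of the Ccl5-rich cells, or 74.4%, 79.3%, 88.9% and 89.7%, against 62.8%, 64.8%, 71.6% and 72.8% of the other cells. The part of such cells in the Ccl5 level was not tested.

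Among the receptors, the level of Ccr1 was highest in basophil-mast cells. They stood at 22.0, 22.1, 24.3 and 33.7 CPM, above the other cells in 4 of 4 libraries by 1.93 ± 0.677 (SD), although on 4, 2, 9 and 20 UMIs. With copied barcodes left out, the 3 basophil-mast cells of control 2 held no Ccr1 UMI. With cells thinned to 1000 UMIs, the gate stood above the other cells in only 1 of 4 libraries (0.43 ± 2.40, SD). The gate is small and held 0.885%, 3.57%, 8.41% and 35.7% of all Ccr1 UMIs, while ungated cells held 33.2%, 58.9%, 80.4% and 51.8%. Neutrophil cells stood at 12.8, 3.03, 4.25 and 1.82 CPM, on 202, 10, 4 and 1 UMIs, and held 44.7% of the Ccr1 UMIs of control 1. No Ccr1 UMI was found in erythroid cells. Over all LSK cells Ccr1 stood at 7.50, 2.24, 2.99 and 1.02 CPM (-1.39 ± 0.629), and knockout 1 lay between the 2 controls.

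**Figure D4:**
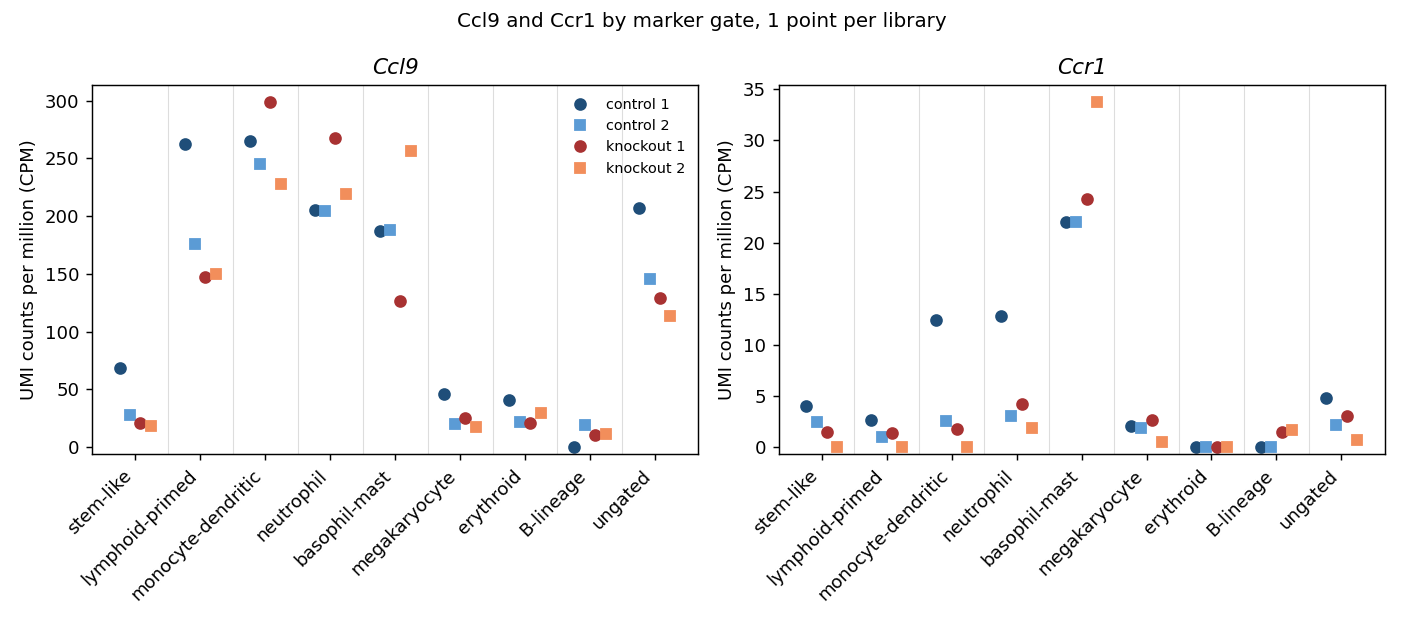
Level in CPM of Ccl9 and Ccr1, with the gate on the horizontal axis and 1 point per library. Ccl9 lies between 204 and 299 CPM in every library of the monocyte-dendritic and neutrophil gates, and Ccr1 is highest in basophil-mast cells, at 22.0 to 33.7 CPM.

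Ccr2 was highest in monocyte-dendritic cells, at 212, 155, 140 and 91.9 CPM, which was 1.82 ± 0.761 (SD) above the other cells and higher in 4 of 4 libraries. The knockouts lay below the controls there (-0.68 ± 0.246), and the nearest values of the groups were 155 and 140 CPM. In neutrophil cells the libraries were close, at 114, 86.1, 114 and 111 CPM (0.17 ± 0.186). Of these neutrophil cells, 1219, 88, 20 and 14 were not copied barcodes. In other cells Ccr2 varied widely between libraries of 1 genotype. Over all LSK cells it stood at 108, 40.3, 56.3 and 10.1 CPM (-1.20 ± 0.746), with knockout 1 above control 2. The spread was widest in lymphoid-primed cells, at 162 and 21.2 CPM in the controls and 147 and 5.42 CPM in the knockouts. Ungated cells stood at 94.1, 24.4, 54.5 and 9.79 CPM. In both genotypes, replicate 1 was the higher one in these sets, also with copied barcodes left out (lymphoid-primed cells at 165, 17.1, 158 and 5.47 CPM). Whether libraries of the same replicate number were handled together is not stated in the sources used here. Stem-like cells held 22, 0, 1 and 0 UMIs of Ccr2.

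Cxcr4 did not separate the genotypes over all cells. It stood at 19.3 and 30.2 CPM in the controls and at 26.7 and 31.3 CPM in the knockouts (0.21 ± 0.224), with knockout 1 below control 2. B-lineage cells were highest, at 119, 45.5, 81.6 and 64.7 CPM on 4, 7, 54 and 157 UMIs, and exceeded the other cells of their library in 4 of 4 libraries by 1.34 ± 0.782 (SD). They stood above basophil-mast cells, the next gate by mean level, in 3 of 4 libraries. With copied barcodes left out, the B-lineage gate held 8, 7, 105 and 302 cells and was still the highest by mean level. In stem-like cells Cxcr4 stood at 17.1, 21.0, 28.1 and 29.4 CPM (0.53 ± 0.286) and in lymphoid-primed cells at 26.3, 38.5, 49.1 and 44.0 CPM (0.48 ± 0.237). Both knockouts lay above both controls in each of these gates, and neither difference passed the threshold. Of all genes tested, 30.1% in stem-like and 22.3% in lymphoid-primed cells lay this way.

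**Figure D5:**
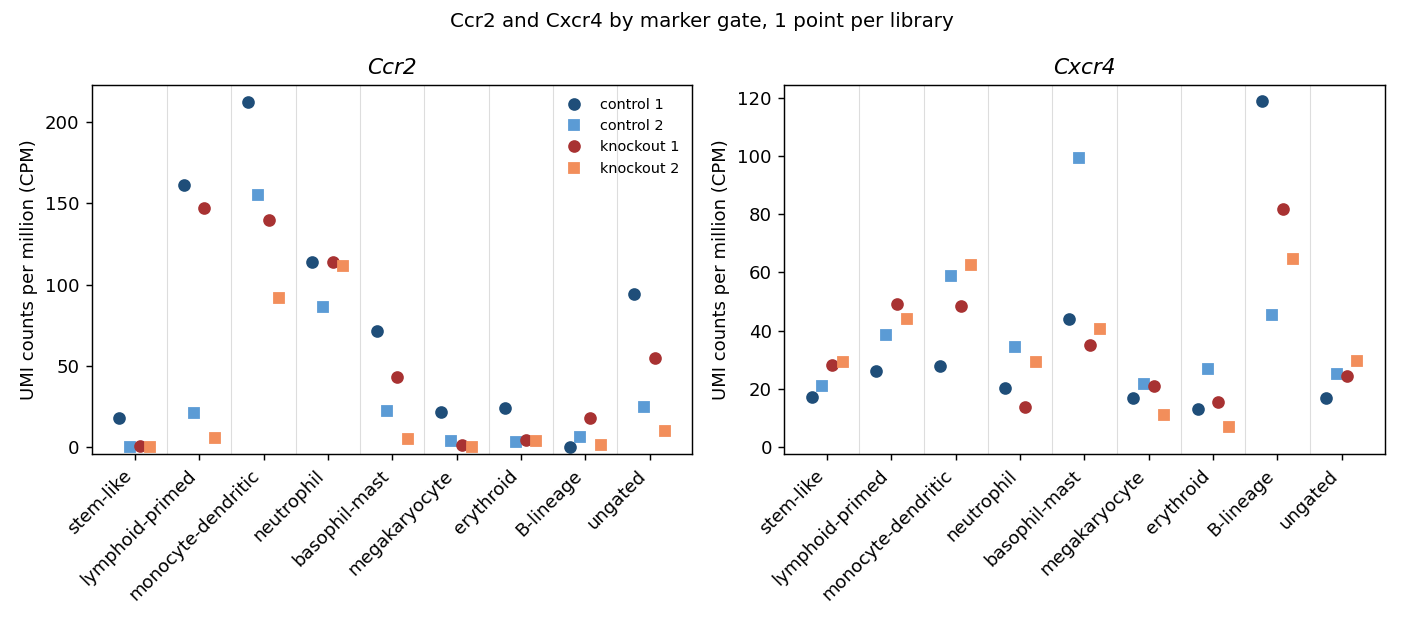
Level in CPM of Ccr2 and Cxcr4, with the gate on the horizontal axis and 1 point per library. In lymphoid-primed cells the replicate 1 libraries of Ccr2 (162 and 147 CPM) stand far above the replicate 2 libraries (21.2 and 5.42 CPM), and Cxcr4 is highest in B-lineage cells.

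Several gene lists moved with genotype in the same libraries. The summed level of 12 immediate early genes (Fos, Jun, Egr1 and others, genes that are switched on quickly when a cell is stimulated) was 3545 and 3476 CPM in the controls and 1604 and 1749 CPM in the knockouts, and 11 of the 12 were lower in both knockouts than in both controls. In stem-like cells the sum was 8785, 7963, 1962 and 2065 CPM. In basophil-mast cells, where Ccl3 was not lower, it was 4705, 5308, 2961 and 2995 CPM. In monocyte-dendritic cells, where Ccl3 and Ccl4 were lower, it was 2473, 2009, 1053 and 2095 CPM, with knockout 2 between the controls. In every other gate and in ungated cells the sum was lower in both knockouts than in both controls. Sums of 6 neutrophil markers (6963, 4188, 1398 and 788 CPM) and 6 monocyte-dendritic markers (429, 303, 169 and 105 CPM) were lower as well, with all 6 genes of each list lower in both knockouts. Of 6 markers of mature neutrophils, 5 were lower in both knockouts (323, 1630, 174 and 213 CPM in sum). Macrophage markers summed to 36.3, 30.9, 21.8 and 13.7 CPM, and 3 of 6 were lower in both knockouts and 3 higher in both. Sums of basophil-mast (25.8, 32.1, 57.7 and 149 CPM), B-lineage (50.7, 97.1, 156 and 439 CPM) and plasma cell markers (67.9, 208, 551 and 393 CPM) were higher in both knockouts. Of their genes, 6 of 6, 8 of 9 and 3 of 4 were higher in both. The plasma cell sum was mostly Jchain (54.5, 177, 469 and 324 CPM). Plasmacytoid dendritic markers stood at 21.7, 30.6, 50.4 and 50.5 CPM in sum, and 5 of 6 were higher in both knockouts. The share of all genes that lay this way over all LSK cells was not counted. In ungated cells 30.6% of all genes tested were lower and 25.4% higher in both knockouts than in both controls. The part of these lists in the levels of the 8 genes was not tested.

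Of the other chemokine system, 72 of 73 listed genes were found: 32 of 33 ligands, 21 receptors and 19 genes of signalling. In edgeR's fit over all LSK cells, 10 ligands, 12 receptors and 19 signalling genes passed the filter on low counts, and 5 genes changed, where 3% of all genes tested did. The list was chosen with earlier results of these data known. The medians of the log2 fold changes were 0.04, 0.72 and -0.02, beside -0.01 over all genes tested. Among the ligands 2 fell and none rose. Cxcl10, an interferon-induced ligand of Cxcr3, stood at 35.1, 53.9, 10.5 and 6.78 CPM and fell by 2.41 ± 0.280 on the log2 scale (edgeR, adjusted p = 0.0147). Cxcl9, a ligand of the same receptor, stood at 5.05, 6.63, 1.70 and 0.859 CPM and fell by 2.25 ± 0.342 (edgeR, adjusted p = 0.0288). Among the receptors 1 fell and 1 rose. Cx3cr1, the fractalkine receptor of monocytes, stood at 5.23, 4.31, 2.04 and 1.48 CPM (-1.49 ± 0.236; edgeR, adjusted p = 0.0324). In monocyte-dendritic cells, where it was highest by mean level, it stood at 18.2, 33.4, 22.4 and 22.1 CPM, with both knockouts between the controls. Ccr9, the receptor of Ccl25, stood at 0.116, 0.359, 1.90 and 2.32 CPM (3.35 ± 0.492; edgeR, adjusted p = 0.0272), highest in plasmacytoid dendritic cells. Of the signalling genes 1 fell: Rgs1, a regulator that shortens G protein signals, stood at 198, 267, 86.4 and 80.2 CPM (-1.52 ± 0.169; edgeR, adjusted p = 0.0140). In stem-like cells, where Rgs1 was highest, it stood at 555, 682, 122 and 105 CPM.

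Other genes of the system reached a mean of at least 10 CPM in a gate without passing the threshold over all LSK cells. Platelet factor Pf4 stood at 1113, 1145, 698 and 905 CPM in megakaryocyte cells, where the ligand Ccl25 stood at 17.5, 21.8, 21.1 and 16.8 CPM. Ccl27a was highest in stem-like cells, at 30.9, 35.5, 23.8 and 19.0 CPM, as was the atypical receptor Ccrl2, at 17.9, 21.8, 4.32 and 7.68 CPM. Cxcl2 was highest in monocyte-dendritic cells, at 15.5, 31.4, 5.18 and 11.03 CPM. Xcr1, a receptor of cross-presenting dendritic cells, stood at 1.64, 1.52, 51.8 and 114 CPM in the monocyte-dendritic gate. Ccl2, the ligand of Ccr2, was highest in basophil-mast cells, at 5.50, 0, 89.0 and 15.2 CPM. Ccr7, Ccr10 and Cxcr5 were highest by mean level in B-lineage cells, and Cxcr3 in plasmacytoid dendritic cells, where the controls had 8 and 14 cells. B-lineage cells stood at 0, 26.0, 48.4 and 21.0 CPM of Ccr7 and at 0, 0, 34.8 and 14.4 CPM of Cxcr5. Their Ccr10 stood at 89.1, 6.50, 1.51 and 1.65 CPM. That mean was carried by control 1, which had 28 cells in the gate. Of the 19 signalling genes 18 reached 10 CPM in a gate, led by the G protein subunit Gnai2 (719, 675, 566 and 643 CPM in monocyte-dendritic cells) and the GTPase Rac2 (861, 611, 442 and 565 CPM in B-lineage cells).

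Genes whose pattern over gates and libraries was most like that of each of the 8 were taken by Pearson's r of log2(CPM + 5) over 38 points, among 5994 genes. The points share libraries and depth, so r is a description. Ccl3 was most like Lat2 (0.796), an adaptor of immune receptors, followed by Hcst (0.777) and Znrf1 (0.759). Ccl4 was most like Znrf1 (0.777), Matk (0.719) and Gm20342 (0.709). Ccl9 was most like Atp8b4 (0.919), the lectin receptor Clec12a (0.896) and the transferrin gene Trf (0.896), and Ccr2 like Clec12a (0.874), Atp8b4 (0.845) and F13a1 (0.827), a marker of the monocyte-dendritic gate. Ccr1 was most like the basophil proteases Mcpt8 (0.873) and Prss34 (0.827), which are markers of its gate, and Hdc (0.782), the enzyme that makes histamine. The genes nearest to Cxcr4 were Akna (0.762), Polr2a (0.730) and Rac2 (0.724). For Ccl5 they were Stk26 (0.684), Fam69b (0.646) and Ninj1 (0.640), and for Ccl6 Lgals3 (0.704), Arpc3 (0.688) and Cst3 (0.639). Among the 8, Ccl3 and Ccl4 were the pair most alike (0.876), ahead of Ccl9 and Ccr2 (0.805) and of Ccl3 and Ccl9 (0.743).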

How the data were processed

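The deposited values are raw UMI counts of each gene in each barcode, which the authors made with Cell Ranger 3.1 on mm10 (GRCm38), per the labels. Barcodes under 200 genes or above 10% mitochondrial UMIs were removed. Doublets were not removed. Cells were gated by the mean z-score of fixed markers (cap of 5, minimum of 1, 2 markers). The scoring rule was chosen after the data were seen. UMIs were summed per library and gate and tested with edgeR 4.0.16 in R 4.3.3 (quasi-likelihood, filter on low counts, trimmed mean scaling, Benjamini-Hochberg adjustment over all genes tested at 0.05). The SE is the log2 fold change divided by the root of F. Alternatives used DESeq2 1.42.0, a replicate block, other filters and each library left out. The script was tested on simulated data. Python 3.11.15 was used for the rest. Intervals and floors (3 counts) cover counting error only.

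The 8 genes, the lists and the gates were chosen with earlier results of these data known. Of the other chemokine genes, those past the threshold over all LSK cells or with a mean of at least 10 CPM in a gate could be named, and 1 of them is not reported here. Genes alike in pattern were the 3 with the highest r among genes with a mean of at least 20 CPM. Positions are from GENCODE and promoters from RefSeq, both on GRCm38.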

Additional observations from a re-analysis of the deposited data

Results flagged for a closer look

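For some of the 8 genes both knockouts lay above both controls in a gate and below both controls in another. Of 10291 genes tested in more than 1 gate or in a gate and in ungated cells, 35.3% did so, so the pattern is frequent among genes at large. None of these differences between gates was tested.

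Ccl3 in basophil-mast cells had a log2 fold change of 1.1962, with both knockouts (116 and 331 CPM) above both controls (104 and 99.3 CPM). In neutrophil, monocyte-dendritic, megakaryocyte, erythroid, stem-like, lymphoid-primed and ungated cells both knockouts lay below both controls. The gate held 32, 21, 23 and 38 cells in control 1, control 2, knockout 1 and knockout 2.

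Ccl6 in monocyte-dendritic cells had a log2 fold change of 1.7391, with both knockouts above both controls, while in ungated cells it stood at 2.96 and 2.61 CPM in the controls and at 2.47 and 1.62 CPM in the knockouts.

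Ccl9 in neutrophil cells had a log2 fold change of 0.25582, with both knockouts above both controls, while in stem-like, lymphoid-primed and ungated cells both knockouts lay below both controls. Of the 250 and 135 knockout cells in the neutrophil gate, 20 and 14 were not copied barcodes.

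Cxcr4 had a log2 fold change of 0.53224 in stem-like cells and of 0.47603 in lymphoid-primed cells, with both knockouts above both controls. In basophil-mast cells it stood at 44.0 and 99.3 CPM in the controls and at 35.1 and 40.5 CPM in the knockouts.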

How the results depend on the processing

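Of the 15 differences of the 8 genes past the threshold (2 over all LSK cells and 13 within gates), each kept its direction in every alternative that could fit it. With copied barcodes left out all 15 stayed past the threshold, with DESeq2 10 of the 13 that had an adjusted p, and with the stricter gate all 13 fitted. Without control replicate 1, 12 of 14 stayed, without control replicate 2 all 15, without knockout replicate 1 13 and without knockout replicate 2 12. In fits that leave out a library, the lone library of a genotype is assumed to vary like the other group.

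Over all LSK cells, the count of the 8 genes past the threshold was 2. It was 5 without the filter on low counts, and ran from 2 to 5 with 1 library left out (5 without control 2 and 4 without knockout 1). The count of other chemokine system genes was 5. It was 8 with DESeq2, 14 without the filter, and from 5 to 13 with 1 library left out (8 without control 1 and 13 without control 2). Within gates the count was 13, and from 11 to 25 with 1 library left out (25 without control 2). The highest gate was the same for all 8 genes with copied barcodes left out, for 7 with the stricter gate (Ccl3 then highest in basophil-mast cells), for 6 to 8 with 1 library left out and for 4 with cells thinned to 1000 UMIs, where Ccl3, Ccl4 and Ccl9 were highest in basophil-mast cells and Ccl5 in megakaryocyte cells. The cause was not tested.

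Deviations from the genotype means of control 1 and knockout 1 had r = 0.0030 over 13844 genes. An r over all genes cannot tell whether some genes varied with the replicate number, and Ccr2 was higher in replicate 1 in both genotypes. With the replicate number as a block, the count over all cells was 5 for the 8 genes and 10 for the other genes, and 16 within gates. Of the 15 differences 14 stayed past the threshold. Under the block, Ccl4 and Ccl9 in basophil-mast cells turned to -0.18 and -0.057 and Ccl5 in megakaryocyte cells to -0.42.

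Values not past the threshold changed sign as follows (log2 fold change). Ccl9 in monocyte-dendritic cells was 0.030 with the stricter gate and 0.011 with DESeq2, Ccl5 in megakaryocyte cells was -0.18 with DESeq2, and Ccl5 in lymphoid-primed cells was -0.17 with the stricter gate. With 1 library left out, Ccl5 ran from -0.90 to 0.35 over all cells, from -2.82 to 0.67 in megakaryocyte, -1.46 to 0.14 in stem-like, -2.64 to 1.71 in lymphoid-primed and -1.20 to 0.19 in ungated cells. Cxcr4 ran from -0.11 to 0.57 over all cells, -0.92 to 0.10 in neutrophil, -0.26 to 0.93 in monocyte-dendritic, -0.69 to 0.21 in megakaryocyte and -0.31 to 0.69 in B-lineage cells. Ccl9 ran from -0.22 to 0.14 in monocyte-dendritic, -0.51 to 0.50 in basophil-mast and -0.66 to 0.16 in erythroid cells. Ccr2 ran from -3.98 to 1.52 in lymphoid-primed and -2.56 to 0.36 in ungated cells. Ccl6 ran from -0.078 to 0.0040 in neutrophil cells, Ccl4 from -2.31 to 1.16 in basophil-mast cells, and the level of Ccl6 in basophil-mast cells over other cells from -0.23 to 1.42.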
